A study of Homo sapiens with 6 samples.

Results

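The genes described here encode the subunits of the proteasome, its activators and inhibitor, and the factors that assemble it. They were taken as the probe sets whose annotated symbol starts with PSM, followed by a letter from A to G and a number, or is POMP. The immunoproteasome subunits PSMB8 and PSMB9 were left out by that rule. It gave 43 probe sets, 1 per gene, of 21448 on the array. PSMC5, PSMD7, PSMD13 and PSME2 had no annotated probe set and were not analysed here. Total RNA of the colorectal cancer cell lines KM12SM and SW620 was measured on 6 Clariom S human arrays, with 3 for each line. KM12SM is a liver-metastatic derivative of KM12, SW620 comes from a lymph node metastasis, and both were grown in the same medium with serum and with no treatment named. Each line is a single established line, so the comparison is of these lines and not of metastatic sites. Nothing in the sources says that the 3 RNA replicates of a line came from separate cultures, so p-values speak only for the variation among these 6 samples, and that variation may be technical.

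The proteasome degrades proteins that carry ubiquitin chains. Its core particle is a stack of alpha and beta rings that encloses the proteolytic sites of PSMB5, PSMB6 and PSMB7. The regulatory particle caps the core. Its base holds a ring of ATPases (PSMC subunits) that unfold substrates, together with the scaffold PSMD1 and PSMD2 and the ubiquitin receptor PSMD4, and its lid holds the deubiquitinase PSMD14. Dedicated chaperones build both particles and leave the finished complex or are consumed by it. Colorectal cancer cells, like other proliferating cells, depend on the complex for the turnover of cell cycle regulators and misfolded proteins.

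RefSeq promoter sequences (GRCh38.p14) matched 37 of the 43 genes, and the 250 bases before each annotated start were searched on both strands for the motifs given here. The antioxidant response element core TGACNNNGC, a motif bound by the NRF family of transcription factors, was in 9 of the 37 (24.3%) and in 11% of all 27305 promoters. The CCAAT box, spelled CCAAT, was in 15 (40.5%, against 33%), and the ETS core CCGGAAG in 10 (27.0%, against 8.82%). The antioxidant response element core was in 3 of the 4 matched members that were higher in KM12SM, in 3 of the 10 that were lower and in 3 of the 23 that were not called (a call is an adjusted p under 0.05 from limma). In the same order, the ETS core was in 2, 4 and 4 of them, and the CCAAT box in 1, 3 and 11. That these shares are unequal was not tested. The 4 windows shown here are those of the members that kept their call without any 1 array, that hold a match and whose window ends at the annotated edge of the gene: an assembly factor of the base, a lid subunit, an assembly factor of the core and an activator. Capitals mark a motif match, read 5′ to 3′ on the strand of the gene. In PSMD10 (chrX:108091543-108091792, minus strand) it is a CCAAT box on the opposite strand. In PSMD12 (chr17:67366578-67366827, minus strand) the matches are an antioxidant response element core and, next to the start, an ETS core on the opposite strand. PSMG2 (chr18:12658488-12658737, plus strand) and PSME1 (chr14:24135944-24136193, plus strand) each hold 1 antioxidant response element core, and none of the marked matches overlap.
PSMD10: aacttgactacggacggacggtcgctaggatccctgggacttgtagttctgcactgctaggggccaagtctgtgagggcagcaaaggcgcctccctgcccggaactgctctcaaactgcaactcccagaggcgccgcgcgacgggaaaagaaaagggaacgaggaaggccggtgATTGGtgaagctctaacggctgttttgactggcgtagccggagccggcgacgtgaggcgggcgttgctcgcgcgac
PSMD12: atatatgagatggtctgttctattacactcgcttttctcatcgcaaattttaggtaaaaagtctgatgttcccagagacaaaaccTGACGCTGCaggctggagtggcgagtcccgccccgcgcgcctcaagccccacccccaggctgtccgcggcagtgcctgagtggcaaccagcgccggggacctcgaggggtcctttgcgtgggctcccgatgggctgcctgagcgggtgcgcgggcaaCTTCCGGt
PSMG2: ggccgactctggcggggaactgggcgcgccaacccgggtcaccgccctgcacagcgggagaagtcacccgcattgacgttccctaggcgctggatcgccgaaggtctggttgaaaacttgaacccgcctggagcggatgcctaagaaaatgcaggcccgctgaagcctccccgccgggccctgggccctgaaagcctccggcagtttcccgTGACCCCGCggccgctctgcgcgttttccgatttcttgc
PSME1: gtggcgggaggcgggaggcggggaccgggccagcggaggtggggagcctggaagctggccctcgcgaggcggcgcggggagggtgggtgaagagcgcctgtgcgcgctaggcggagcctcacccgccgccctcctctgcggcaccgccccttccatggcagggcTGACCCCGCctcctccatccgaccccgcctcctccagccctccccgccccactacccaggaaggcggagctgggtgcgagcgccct

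The arrays of a line correlated at r = 0.981 to 0.992 over all probe sets and those of different lines at 0.919 to 0.926. Replicate 3 of each line stood apart, and not for the proteasome genes alone. The median log2 signal of the 43 members was 9.28 on replicate 3 of KM12SM, against 9.64 and 9.66 on its other arrays, and 9.46 on replicate 3 of SW620, against 9.83 and 9.79. Over all probe sets the medians lay between 6.71 and 6.78, while the 75th percentile was 8.26 and 8.17 on replicate 3 and 8.32 to 8.36 on the other arrays. Replicate 3 was the lowest KM12SM array for 29 members (67.4%, against 34.8% of all probe sets) and the lowest SW620 array for 36 (83.7%, against 45.4%). Of 29 genes of the COP9 signalosome, eIF3 and CCT, complexes described with the results, replicate 3 was the lowest array for 14 in KM12SM and 21 in SW620. The colorectal epithelium markers were above the lowest quartile of signals in both lines, 9 of 9 genes, with a summed linear signal of 17102 to 20346 in KM12SM and 12593 to 14528 in SW620. Of these 9 genes 5 were higher in KM12SM, among them CDH1, the adhesion molecule of epithelia (3.69 on the log2 scale), and VIL1, a protein of the brush border, was lower (-0.81). Of the markers of cells that the cultures should lack, 1 of 5 fibroblast genes (LUM) and 1 of 5 hepatocyte genes (SERPINA1) were lower in KM12SM. LUM had means of 3.93 in KM12SM and 9.36 in SW620, and SERPINA1 of 5.86 and 8.03. SERPINA1 was thus above the lowest quartile of signals (5.12) in both lines, and LUM in SW620 only. They were not alone in this. COL1A1, COL1A2, DCN, APOA1, TTR, CDH5 and VWF had means above that quartile in both lines, without a call. The 4 endothelial genes had log2 differences between -0.37 and 0.16 without a call.

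Across the 43 members, 5 were higher in KM12SM (PSME1, PSMB1, POMP, PSMD9 and PSMG1), 10 were lower (PSMD10, PSMG4, PSMD12, PSMG2, PSMD1, PSME4, PSMA1, PSMD14, PSMF1 and PSMD6) and 28 were not called (limma, two-sided, adjusted p under 0.05). The median difference was -0.04 on the log2 scale and 0.01 over all probe sets, with a range from -1.48 to 1.31. The 15 called members are 34.9%, against 25% of all probe sets in either direction, 12.6% higher and 12.4% lower. For 19 members (44.2%) the lines had no overlapping arrays, against 37.7% of all probe sets. By role, 6 of the 8 assembly factors were called, 3 of the 4 activators and inhibitor, 4 of the 14 regulatory particle subunits and 2 of the 17 alpha and beta subunits. Without replicate 3 of both lines the counts were 4 higher and 12 lower, against 14% and 15.1% of all probe sets. They were 2 and 6 without KM12SM replicate 1 (9.8% and 9.7% of all probe sets) and 3 and 5 without SW620 replicate 1 (10% and 9.1%).

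**Figure D1:**
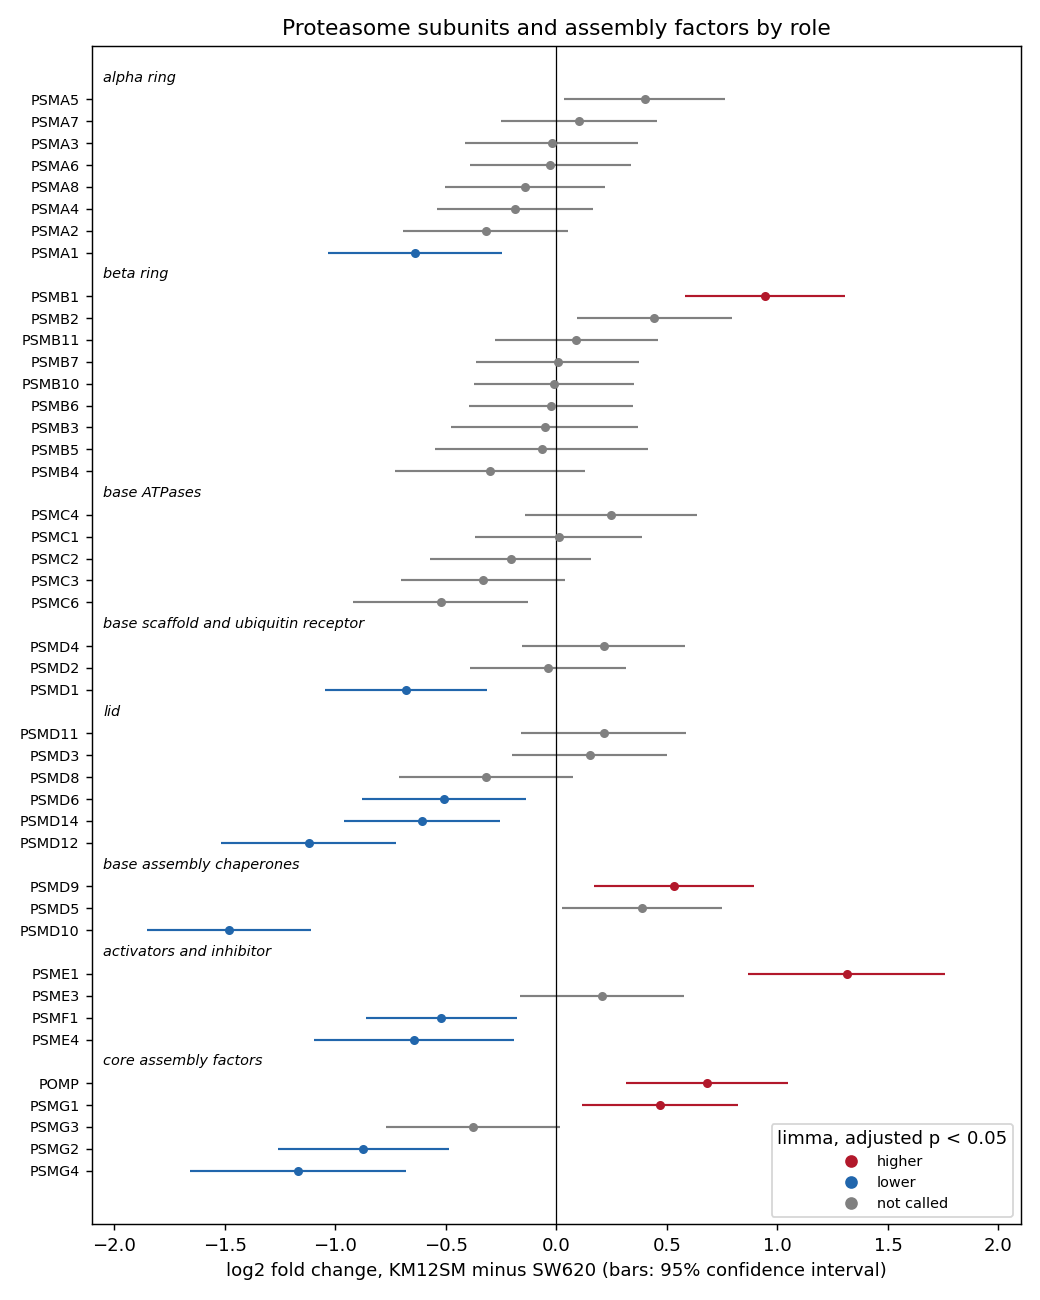
Log2 fold change of each proteasome gene, KM12SM minus SW620, grouped by role, with 95% confidence intervals from limma (3 arrays per line) and colour for the call. The differences run from -1.48 for PSMD10 to 1.31 for PSME1, and most alpha, beta and ATPase subunits lie near 0.

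The proteolytic subunits of the core did not pass the test. PSMB5, which carries the chymotrypsin-like site and is the main target of bortezomib, had log2 signals of 9.64, 9.91 and 9.0 in KM12SM, with 9.71, 9.78 and 9.26 in SW620. The arrays overlapped, and the difference of -0.07 had a 95% interval from -0.55 to 0.42 (adjusted p = 0.876, limma). PSMB6, with the caspase-like site, was at 10.05, 10.22 and 9.76 in KM12SM, with 10.10, 9.97 and 10.03 in SW620, a difference of -0.02 (-0.39 to 0.35, adjusted p = 0.945). For PSMB7, with the trypsin-like site, the signals were 10.14, 10.32 and 9.90 against 10.12, 10.20 and 10.02, a difference of 0.01 (-0.36 to 0.38, adjusted p = 0.985). In each of these genes the KM12SM arrays spanned the whole range of the SW620 arrays, and the 3 intervals lie inside a 1.5-fold difference. The unadjusted p was under 0.05 for 0 of the 3, and limma with array weights and an unmoderated test, which takes the spread of each gene alone and was adjusted in the same way, also called 0.

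The interferon-induced counterparts of these subunits gave different values. PSMB10, which takes the place of PSMB7 in the immunoproteasome, was at 7.11, 7.24 and 6.86 on the KM12SM arrays and 7.01, 7.13 and 7.10 on those of SW620. Its arrays overlapped and its difference was -0.01 (-0.37 to 0.35, adjusted p = 0.977). PSMB8, which replaces PSMB5 and lies outside the rule, was at 9.05, 9.32 and 8.76 in KM12SM, against 7.13, 7.18 and 7.12 in SW620, a difference of 1.90 ± 0.18 (SE, adjusted p = 7.51e-07). PSMB9, which replaces PSMB6, was at 7.85, 8.11 and 6.68 against 5.34, 5.19 and 5.18, a difference of 2.31 ± 0.28 (adjusted p = 1.04e-05). All arrays of KM12SM were above all of SW620 for both genes, so the immunoproteasome subunits of the rule and those left out by it did not share a pattern. That the differences of PSMB10, PSMB8 and PSMB9 are unequal was not tested.

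**Figure D2:**
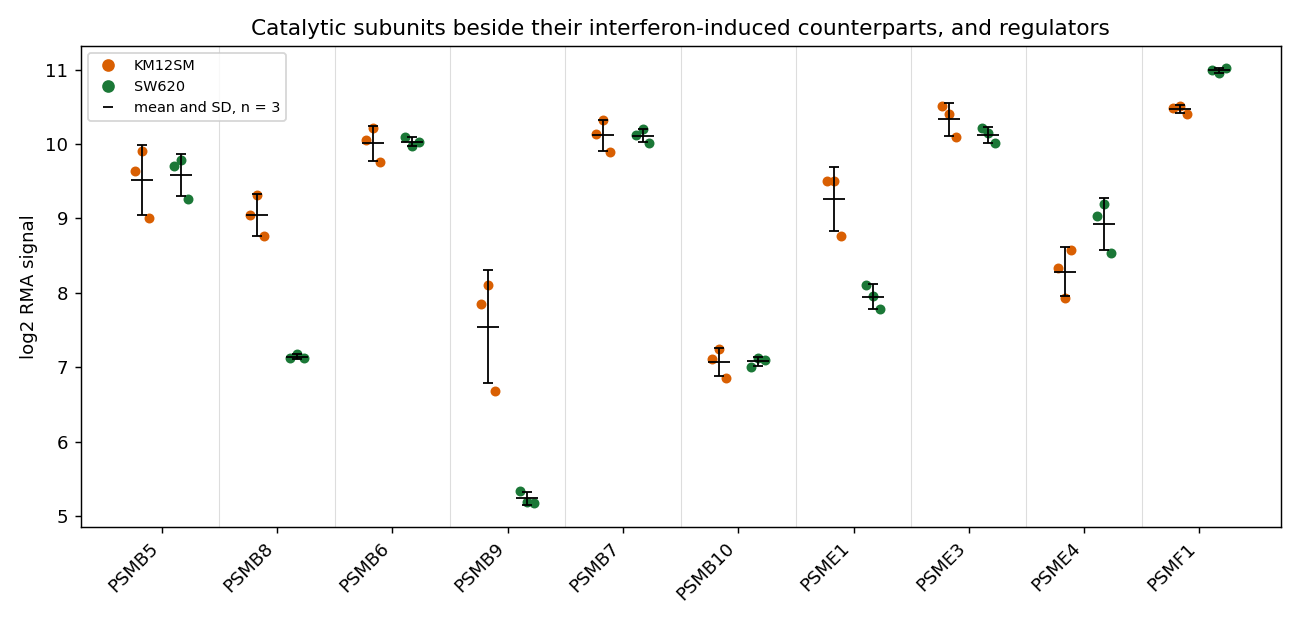
Log2 RMA signal on each of the 6 arrays for the catalytic subunits and their interferon-induced counterparts, and for the activators and the inhibitor (bars: mean and SD, n = 3). The arrays of the lines overlap for PSMB5, PSMB6, PSMB7 and PSMB10 and are separate for PSMB8, PSMB9, PSME1 and PSMF1.

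Among the other alpha and beta subunits, PSMA1 and PSMB1 differed, in opposite directions. PSMB1 was at 9.68, 9.75 and 9.59 on the KM12SM arrays and 8.82, 8.85 and 8.52 on those of SW620, and the lines were clearly apart. It was 1.92-fold higher in KM12SM (log2 0.94 ± 0.17, adjusted p = 0.00055) and was called under every one of the 15 alternatives, which change the normalization, the filter, the test or the arrays used. PSMA1, a subunit of the alpha ring, was at 8.40, 8.68 and 8.13 in KM12SM, against 9.18, 9.09 and 8.86 in SW620. All KM12SM arrays were lower, and the difference of -0.64 ± 0.19 (adjusted p = 0.0179) lost its call without KM12SM replicate 1, KM12SM replicate 3 or SW620 replicate 1, with adjusted p up to 0.0899. The other 7 genes of the alpha ring ranged from -0.32 for PSMA2 to 0.40 for PSMA5, and the arrays of PSMA5 did not overlap (adjusted p = 0.108). PSMB2, the beta subunit next in size of difference to PSMB1, had a difference of 0.44 with all KM12SM arrays higher, which missed the threshold (adjusted p = 0.0629) and passed it under 5 alternatives. The testis subunit PSMA8 (means of 3.12 and 3.26) and the thymus subunit PSMB11 (4.64 and 4.55) were in the lowest quartile of probe sets in both lines and were not called. Over the 14 subunits PSMA1 to PSMA7 and PSMB1 to PSMB7, 1 was higher, 1 was lower and the median difference was -0.03.

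In the regulatory particle, 4 of 14 subunits were lower in KM12SM and 0 were higher. An unadjusted p under 0.05 (limma) was found for 5, against 7361 of all 21448 probe sets. The 4 lower subunits are 28.6%, against 12.4% of all probe sets lower and 25% called in either direction. The number lower was 2 without SW620 replicate 1 or SW620 replicate 2, where 9.1% and 10.1% of all probe sets were lower, 1 with limma's treat against a fold of 1.2 (7.32%), and 6 without replicate 3 of both lines (15.1%) or with array weights (19.2%). The lid accounted for 3 of the 4, and its median difference was -0.41 over 6 genes. PSMD12, a lid subunit, had the largest difference. Its log2 signals were 9.69, 10.05 and 10.32 in KM12SM, with 11.20, 11.16 and 11.06 in SW620, and the lines did not overlap. PSMD12 was 2.17-fold lower in KM12SM (log2 -1.12 ± 0.19, adjusted p = 0.000263), and the call was kept under all 15 alternatives. PSMD14, which removes ubiquitin chains from the substrate as it enters the complex, was at 9.20, 9.24 and 9.15 against 9.83, 9.94 and 9.64. All KM12SM arrays were lower, with a difference of -0.61 ± 0.17 (adjusted p = 0.0127), and the call was lost without SW620 replicate 1 or 2 (adjusted p up to 0.0598). PSMD6, another lid subunit, was at 8.77, 8.80 and 8.91 against 9.30, 9.58 and 9.13, a difference of -0.51 ± 0.17 close to the threshold (adjusted p = 0.043). Its call was lost without replicate 1 or 2 of either line, with adjusted p up to 0.181. The lid subunits PSMD3, PSMD8 and PSMD11 were not called, with differences of 0.15, -0.32 and 0.21.

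In the base, the scaffold subunits PSMD1 and PSMD2 had unequal values. PSMD1 was at 9.49, 9.58 and 9.41 on the KM12SM arrays and 10.23, 10.35 and 9.94 on those of SW620. Every KM12SM array was lower, and the difference was -0.68 ± 0.17 (adjusted p = 0.00796, between 0.0037 and 0.0421 with any 1 array left out). PSMD2, its neighbour in the scaffold, had means of 9.83 and 9.87 and a difference of -0.04. The ubiquitin receptor PSMD4 had a difference of 0.21 (adjusted p = 0.437). None of the 5 ATPases was called, 1 had an unadjusted p under 0.05 and array weights called 2, and their differences ran from -0.52 for PSMC6 to 0.25 for PSMC4. All PSMC6 arrays of KM12SM (8.63, 8.83 and 8.31) were below those of SW620 (9.20, 9.25 and 8.89), at an adjusted p of 0.0518, and PSMC6 was called lower under 9 of the 15 alternatives. PSMC6 and PSMC3 (-0.33) were called lower when replicate 3 of both lines was left out, with adjusted p of 0.0374 and 0.031.

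The assembly factors lay on both sides of 0. None of the 8 had overlapping arrays, against 37.7% of all probe sets without overlap, with 4 above and 4 below in KM12SM. Of the 8, 3 were called higher and 3 lower, which is 75%, against 25% of all probe sets. The 3 lower calls held on leaving out any 1 array. The number higher was 0 without KM12SM replicate 1, 1 without KM12SM replicate 2, SW620 replicate 1 or SW620 replicate 2, and 2 without replicate 3 of either or both lines. The median size of their differences was 0.61, against 0.26 over all probe sets and 0.15 over the 14 constitutive core subunits, and that these sizes are unequal was not tested. PSMD10, known as gankyrin, a chaperone of the base that also binds the retinoblastoma protein and MDM2, had the largest difference of all members. Its log2 signals were 8.87, 8.88 and 8.96 in KM12SM, with 10.54, 10.50 and 10.11 in SW620. The lines were more than 1 log2 unit apart at their closest arrays, and PSMD10 was 2.79-fold lower in KM12SM (log2 -1.48 ± 0.17, adjusted p = 8.58e-06, called under all 15 alternatives). PSMD9, a chaperone of the same base, went the other way with 7.84, 8.15 and 7.81 in KM12SM, against 7.48, 7.32 and 7.40 in SW620, a difference of 0.53 ± 0.17 (adjusted p = 0.0306). The PSMD9 call was lost without replicate 1 or 2 of either line, with adjusted p up to 0.147. PSMD5, the other base chaperone, was also at higher signals on all KM12SM arrays but was not called (0.39, adjusted p = 0.118).

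The chaperones of the core work as pairs, PSMG1 with PSMG2 and PSMG3 with PSMG4, that help the alpha ring to form. PSMG1 was at 9.19, 8.98 and 9.26 in KM12SM, against 8.72, 8.69 and 8.61 in SW620. The arrays did not overlap, but the difference of 0.47 ± 0.17 was at the threshold (adjusted p = 0.0498) and was lost on leaving out any 1 of the 6 arrays, with adjusted p up to 0.159. Its partner PSMG2 was at 9.17, 9.33 and 8.90 against 10.15, 10.10 and 9.77, lower on every KM12SM array. PSMG2 was 1.83-fold lower (log2 -0.87 ± 0.18, adjusted p = 0.00189, at most 0.0141 with any 1 array left out), and it missed the threshold in the unmoderated test (0.0507 after adjustment). The 95% intervals of the partners, 0.12 to 0.82 for PSMG1 and -1.26 to -0.49 for PSMG2, lie on opposite sides of 0. PSMG4 was at 7.73, 8.16 and 7.08 on the KM12SM arrays and 8.97, 8.75 and 8.76 on those of SW620, and was 2.25-fold lower (log2 -1.17 ± 0.23, adjusted p = 0.00115). The spread of PSMG4 among the KM12SM arrays (SD 0.54) was wider than among the SW620 arrays (SD 0.12), and the unmoderated test, adjusted in the same way, did not call it (0.0989). PSMG3, its partner, was lower on every KM12SM array without a call (-0.38, adjusted p = 0.165). POMP, the maturation factor that is degraded as the finished core's first substrate, was at 9.81, 9.66 and 9.49 in KM12SM, against 9.07, 9.05 and 8.80 in SW620. POMP was higher on all KM12SM arrays, by 0.68 ± 0.17 (adjusted p = 0.00769), and missed the threshold without KM12SM replicate 1 (adjusted p = 0.0529).

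**Figure D3:**
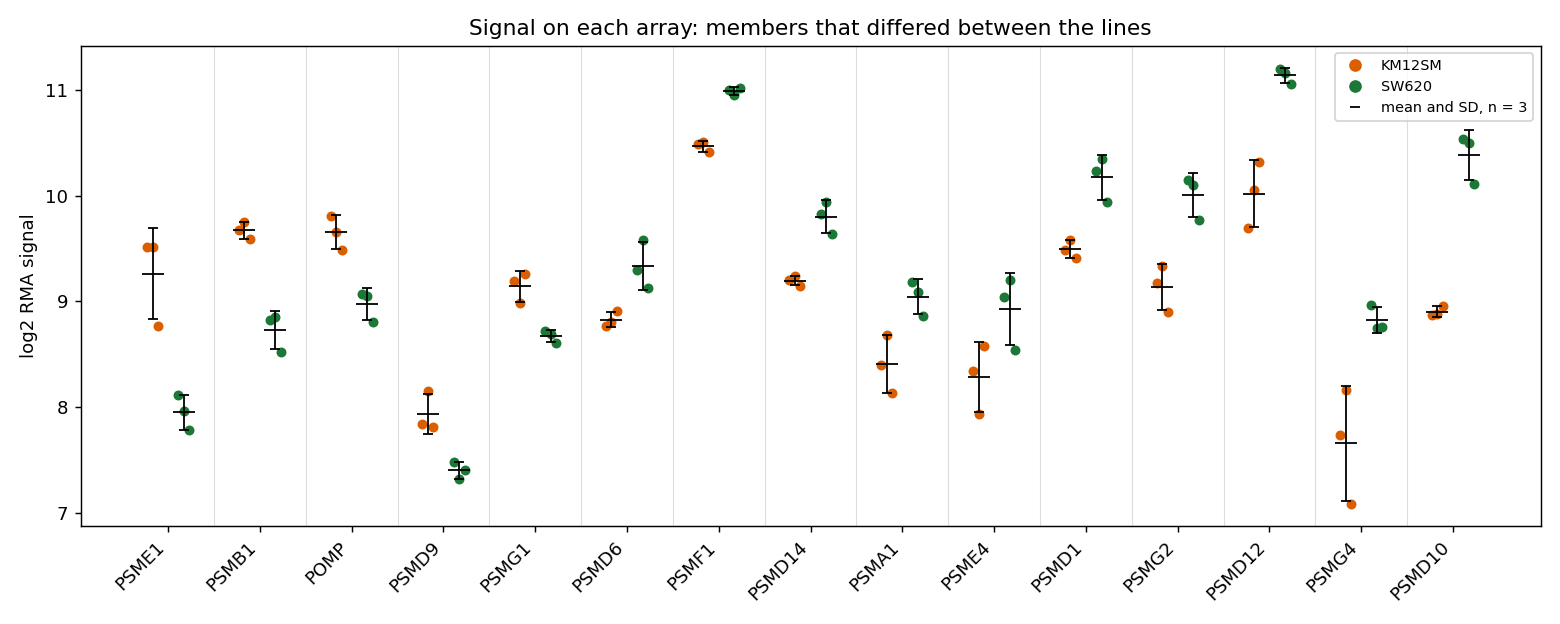
Log2 RMA signal on each array for the 15 called members, ordered from the highest to the lowest fold change (bars: mean and SD, n = 3). Only the arrays of PSME4 overlap between the lines, and replicate 3, the rightmost point of each group, is the lowest of its group for most genes.

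The activators and the inhibitor of the core had differences in both directions. PSME1, the alpha subunit of an interferon-induced activator ring, was at 9.51, 9.51 and 8.77 on the KM12SM arrays and 8.11, 7.96 and 7.78 on those of SW620. Every KM12SM array was higher, and PSME1 was 2.49-fold higher in KM12SM (log2 1.31 ± 0.21, adjusted p = 0.000178). It kept its call without any 1 array (adjusted p at most 0.00305) and missed the threshold in the unmoderated test (0.0525 after adjustment). PSME3, which forms a related activator in the nucleus, was not called (0.21, adjusted p = 0.458). PSME4, an activator linked to histone degradation and DNA repair, was at 8.34, 7.93 and 8.58 in KM12SM, against 9.04, 9.20 and 8.54 in SW620. The arrays of PSME4 overlapped, and its difference of -0.64 ± 0.21 (adjusted p = 0.0366) was lost without replicate 1 or 2 of either line (adjusted p up to 0.174). PSMF1, which inhibits the core in vitro, was at 10.49, 10.51 and 10.41 against 11.0, 10.95 and 11.02. Its arrays were tightly grouped and separate, with a difference of -0.52 ± 0.16 (adjusted p = 0.0255), and the call was lost without any 1 array except SW620 replicate 3 (adjusted p up to 0.1).

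PSME1, PSMB8, PSMB9 and PSMB10 belong to the genes that interferon-gamma induces, and other genes of that response were read beside them. Of these, PSMB10 was not called, with a difference of -0.01. Of 11 genes of interferon-gamma control and peptide loading, 5 were higher in KM12SM and 1 was lower, with a median difference of 0.46. These calls are 54.5%, against 25% of all probe sets. JAK2, a kinase of the interferon-gamma receptor, was 1.38 ± 0.17 higher on the log2 scale (adjusted p = 1.21e-05), and TAP1, which carries proteasome products into the endoplasmic reticulum, was 1.22 ± 0.17 higher. IRF1, a transcription factor of the response, was not called (0.27, adjusted p = 0.401), and the receptor subunit IFNGR2 was lower (-0.68, adjusted p = 0.00861). Leukocyte markers were summed in the same way as a check for other cells. Their total was 5514 to 7009 in KM12SM and 248 to 272 in SW620, with LYZ at a mean of 12.57 against 5.80 and PTPRC, the defining leukocyte surface protein, at 3.93 against 3.90, in the lowest quartile of probe sets. Most of the KM12SM total was LYZ. Of these 4 markers 2 were higher (LYZ and CD68), and PTPRC and CD3E were not called.

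Genes that control the proteasome or work with it were called about as often as all probe sets (25%). Of 11 genes of its transcription control, 2 were higher and 1 was lower (27.3%), with a median of 0.17. NFE2L2 (NRF2), which binds antioxidant response elements, was 0.66 ± 0.18 higher in KM12SM (adjusted p = 0.0117), and its repressor KEAP1 was 0.73 ± 0.19 higher (adjusted p = 0.00792). NFE2L1 (NRF1), the factor that raises proteasome gene transcription when the complex is inhibited, had a difference of 0.41 with no overlap between the lines (adjusted p = 0.0754). The 1 lower gene of this list, AKIRIN2, brings proteasomes into the nucleus, so the list is wider than transcription control. AKIRIN2 was 0.67 lower (adjusted p = 0.0101), a call lost without KM12SM replicate 1 or SW620 replicate 1 (up to 0.0569). Of 16 proteasome-associated genes, 1 was higher and 2 were lower (18.8%), with a median of -0.15. The ubiquitin shuttle UBQLN4 had a difference of 0.86 ± 0.17 (adjusted p = 0.00144), and NUB1, which sends the ubiquitin-like proteins NEDD8 and FAT10 to degradation, one of -1.19 ± 0.18 (adjusted p = 0.000124). Of the 3 genes of ubiquitin and its activating enzymes with a probe set, UBA6 was lower (-0.53, adjusted p = 0.0284), a call lost without any 1 array except SW620 replicate 3.

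Other large complexes show how the proteasome subunits stood among similar genes. The COP9 signalosome, which shares its architecture with the lid, had 3 of 9 genes lower and 0 higher. Those 3 are 33.3%, against 25% of all probe sets called in either direction. The median of the signalosome was -0.43, near the -0.41 of the lid. Among its genes, COPS8 was -1.26 ± 0.17 (adjusted p = 3.15e-05) and COPS2 -0.95 ± 0.19 (adjusted p = 0.00135). The translation initiation complex eIF3, some of whose subunits have the same domains, had 1 of 13 higher and 2 lower (23.1%) and a median of -0.14. In the CCT chaperonin, which folds actin and tubulin, 3 of 7 were lower and 0 were higher (42.9%), with a median of -0.32. CCT5 was -1.13 ± 0.16 (adjusted p = 6.25e-05). The regulatory particle, with 4 of 14 lower and a median of -0.26, lay within the range of these complexes, and whether its values differ from theirs was not tested.

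**Figure D4:**
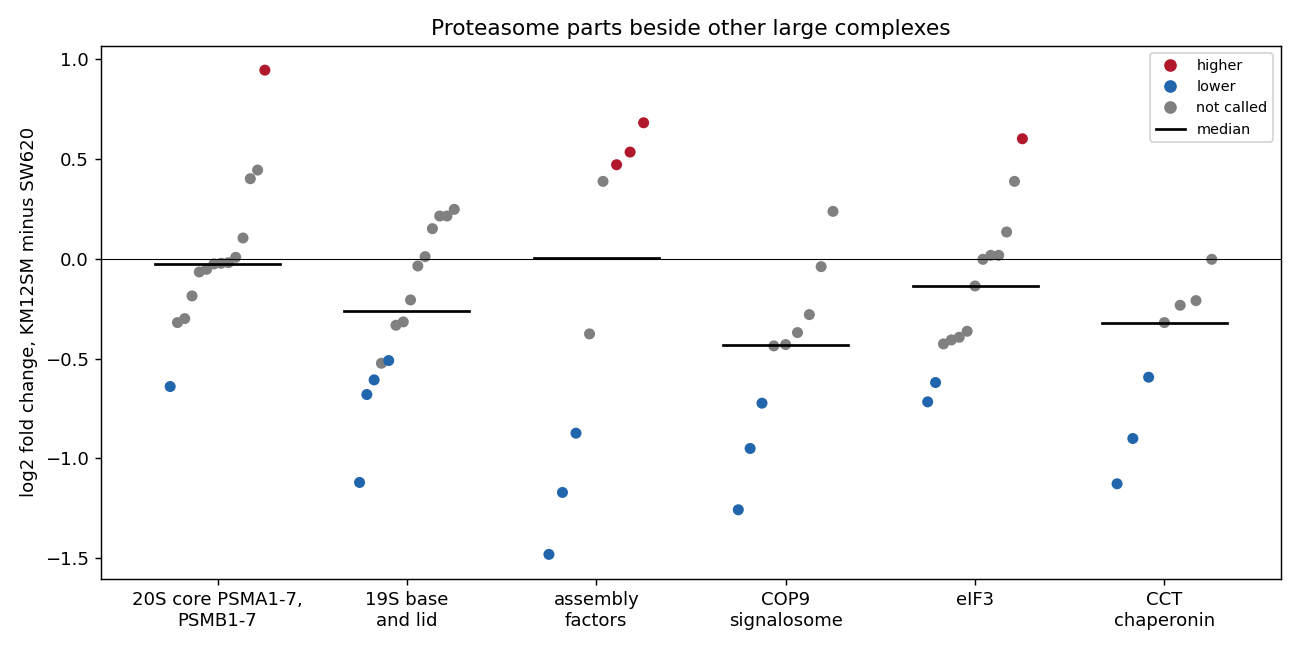
Log2 fold change, KM12SM minus SW620, of each gene of the core particle, the regulatory particle, the assembly factors and 3 other large complexes, with the median of each as a line. The assembly factors lie apart from 0 in both directions, with differences from -1.48 to 0.68 and a median of 0.01, and most genes of the COP9 signalosome and CCT lie below 0.

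Heat shock genes, which respond to misfolded protein and to culture stress, moved with the lines as well. Of 6 genes 5 were lower in KM12SM (83.3%, against 25% of all probe sets called), all by more than 2-fold, with a median of -1.72. HSPA1A was at means of 8.93 in KM12SM and 11.96 in SW620, a difference of -3.03 ± 0.20 (adjusted p = 8.99e-09), and HSPH1 had a difference of -2.55. The part of heat shock in the values of the regulatory particle and of PSMD10 was not tested. The 28 members that were not called had 95% intervals inside a 2-fold difference, 17 of them inside 1.5-fold, and the standard errors of the members lay between 0.16 and 0.23 on the log2 scale. Of the 15 called members, 7 kept their call without any 1 array (PSMB1, PSMD1, PSMD10, PSMD12, PSME1, PSMG2 and PSMG4).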

How the data were processed

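Per the labels, the 6 arrays are 3 each of KM12SM and SW620. The authors deposited log2 signals normalised with RMA in Transcriptome Analysis Console (named in the submitters' processing notes, version not given in the sources used here), and these were used as they stand. RMA scales the arrays to each other, so a shift shared by all genes is removed. Arrays give no counts, and 3 per line limit the precision. The authors' array test was limma with eBayes in that software. Here all 21448 probe sets were fitted with limma 3.58.1 in R 4.3.3 (lmFit, then eBayes, for KM12SM minus SW620, two-sided) with Benjamini-Hochberg adjustment over all of them and a threshold of 0.05. Errors beside log2 differences are standard errors, and intervals are 95%. Symbols came from the platform annotation, and 17709 probe sets have 1 symbol. The members, gene lists and alternatives were chosen with earlier results of these data known. Values on every array are given for called members and for the proteolytic subunits with PSMB10. They are also given, outside that rule and after the values were seen, for PSMC6, PSMB8 and PSMB9. Also named outside that rule, after their values were seen, are the members and list genes given by their difference or mean. The lists were immunoproteasome, proteasome-associated, transcription control, ubiquitin, COP9 signalosome, eIF3, CCT, interferon-gamma, heat shock and cell type markers. Promoters are RefSeq's (GRCh38.p14), and 1 motif searched in them is not reported here. The code was tested on simulated data. Fold changes that the authors' software gives were not used, nor were the protein data of the study.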

Additional observations from a re-analysis of the deposited data

How the results depend on the processing

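No called member changed direction under any of the 15 alternatives. Of the 28 others, 9 with differences of at most 0.07 in size changed sign under 2 to 5 of them. The counts of members higher and lower in KM12SM were 5 and 10, against 12.6% and 12.4% of all probe sets. They were 6 and 11 with quantile normalization (12.5% and 13.5% of all probe sets). With each array centred on its median they were 4 and 11 (11.4% and 13.7%). Without the probe sets under the 25th percentile of means they were 6 and 11 (16.3% and 16.1% of those kept). This filter dropped PSMA8 and PSMB11. The trend and robust options gave 6 and 11 (13.3% and 13%), and array weights 7 and 13 (18.8% and 19.2%). Treat against a fold of 1.2 gave 2 and 4 (7.62% and 7.32%), and the unmoderated test 4 and 5 (6.99% and 7.18%). Without replicate 3 of both lines they were 4 and 12 (14% and 15.1%). Leaving out 1 array at a time gave 2 to 4 higher and 5 to 11 lower. Over all probe sets these fits called 9.8% to 12.5% higher and 9.1% to 13.5% lower. The lowest counts were without KM12SM replicate 1 (2 and 6) and SW620 replicate 1 (3 and 5). With a replicate block the counts were 4 and 10 (13.5% and 13% of all probe sets), with PSMG1 and PSME4 lost and PSMC6 gained. The deviations of same-numbered arrays correlated at 0.06, 0.10 and 0.15. KM12SM replicates 1 and 3, but not 2, correlated best with the SW620 array of their own number. In the main fit the numbers were not taken to pair the arrays, although replicate 3 was low for most members in both lines. Over all probe sets, the counts were 2708 and 2654, with treat 1634 and 1570, in the unmoderated test 1499 and 1539, and with array weights 4041 and 4111. PSMB1, PSMD10 and PSMD12 were called under all 15 alternatives, and 5 members that were not called (PSMA2, PSMB2, PSMC3, PSMC6 and PSMD5) were called under at least 1.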

Other observations

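The members lie on many chromosomes, and some of these differed from the genome as a whole in how often their probe sets were called. Over all probe sets, 12.6% were higher in KM12SM and 12.4% were lower. The part of chromosome location in the values of the members was not tested. On the X chromosome, where PSMD10 lies, 25% of 712 probe sets were lower in KM12SM and 5.62% were higher, and PSMD10 was lower. On chromosome 13, which holds POMP, 24.7% of 292 were higher and 13.4% lower, and POMP was higher. On chromosome 20, with PSMF1 and PSMA7, 19.5% of 498 were lower and 7.43% higher, and PSMF1 was lower. On chromosome 18, 20.4% of 250 were higher and 14.4% were lower, while PSMG2 there was lower. On chromosome 7, 20.4% of 800 were lower and 10.25% higher, while its members PSMA2, PSMC2 and PSMG3 were not called. On chromosome 2, 16.1% of 1135 were lower and 9.43% higher, and its 3 members PSMD1, PSMD14 and PSME4 were lower. Chromosome 14 holds 7 members, of which PSME1 was the only one called, and 13.9% of its 552 probe sets were higher and 9.06% lower. Chromosome 17 holds 6, of which PSMD12 was the only one called, and 15.6% of its 1035 probe sets were lower and 9.76% higher. On chromosome 6, 14.4% of 926 were higher and 13.5% lower, with PSMB1 higher and PSMG4 lower. On chromosome 3, 14.4% of 966 were higher and 11.3% lower, while PSMD6 was lower and PSMD2 was not called.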
